A study of Mus musculus with 11 samples.

Results

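The 40 mouse genes described here make the machinery of mitosis and of the spindle checkpoint. They were chosen by gene symbol from a list of kinases, cyclins, kinetochore, spindle and cytokinesis genes of the G2 and M phases. All 40 were found among the 24319 gene symbols of the RNA-seq tables, and all 40 passed the filter on low values, which left 11110 genes to test. Levels are FPKM, which divides a gene's fragments by its transcript length and the library's mapped fragments, so that levels of different genes can be set side by side.

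The 11 libraries came from C57BL/6J mice. Leukemic cells (B-ALL, B cell acute lymphoblastic leukemia) with the genotype Ebf1+/- Pax5+/- were taken from lymph nodes of 3 mice, numbered 686, 713 and 760, with 2 libraries each. The dHet proB cells were Ebf1+/- Pax5+/- Rag2-/- progenitors, grown from c-Kit+ fetal liver cells on OP9 feeder cells with IL-7, Flt3L and SCF, and gave 3 libraries. The wt proB cells, Ebf1+/+ Pax5+/+ Rag2+/+, were sorted from bone marrow as the FrBC fraction and gave 2 libraries. The transcription factors EBF1 and PAX5 set and keep B cell identity, and RAG2 is part of the recombinase of antigen receptor genes. Rag2 genotype, tissue, culture and leukemia change together between the groups and cannot be told apart. The dHet proB library with the title of replicate 3 has a source name that says replicate 2, as has library 2, and it is called library 3 below. Whether the libraries of dHet proB and of wt proB stem from different animals or cultures is not labelled. A p-value for these groups sets a difference against a spread between libraries, in part perhaps technical. In the fit that spread is pooled with the one between the B-ALL mice.

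As a check of the labels, FPKM of the targeted genes were read in B-ALL, dHet proB and wt proB, in that order. Ebf1 ranged from 151 to 212, 283 to 369 and 297 to 542, Pax5 from 35.3 to 52.8, 70.9 to 99.0 and 57.2 to 100.6, and Rag2 from 11.1 to 16.6, 8.57 to 12.6 and 31.1 to 37.8. The tables give 1 value per gene and do not show whether the Rag2 fragments in the Rag2-/- cells fall in the deleted part. The summed level of 12 proB markers was between 7138 and 12655 FPKM in the 11 libraries. The wt proB libraries also held markers of other cells: the summed level of 10 neutrophil genes was 400.2 and 426 FPKM there, against 1.28 to 48.9 in B-ALL and 0.314 to 3.31 in dHet proB. Siglech, a defining gene of plasmacytoid dendritic cells, was at 132 and 77.3 FPKM in wt proB and listed at 0 in the 3 dHet proB libraries. The whole list for these cells summed to 2579 and 1982 FPKM in wt proB, 864 to 939 in dHet proB and 255 to 2480 in B-ALL. Ly6d was the highest gene of that list in every library, at 768 to 837 FPKM in dHet proB. Erythroid genes summed to 399 and 502 FPKM in mouse 713 and to between 7.89 and 127 in the other 4 B-ALL libraries. The sums of FPKM ranged from 505261 to 638953 per library. The counts behind the values are not in the tables, so no counting error is given.

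In G2, cyclin A and cyclin B bind CDK1, CDC25 phosphatases remove its inhibitory phosphates, and PLK1 and the Aurora kinases carry the cell into mitosis. Kinetochores join the chromosomes to the spindle, and the checkpoint proteins hold back the APC/C, a ubiquitin ligase that CDC20 activates, until every chromosome is attached. Transcripts of these genes accumulate from S phase to mitosis in dividing cells, driven by MuvB complexes with B-MYB and FOXM1, which is why they are widely read as a sign of proliferation. ProB cells divide in response to IL-7. In whole cell samples such as these, a larger share of dividing cells and more RNA per dividing cell cannot be told apart.

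The widest variation among the mitosis genes lay within dHet proB, between libraries of 1 labelled group. Library 2 was above library 1 and library 1 above library 3 in 38 of 40 members, an order that 22.2% of the genes tested showed. Library 2 was the highest of the 11 libraries in 34 members, against 9.8% of the genes tested, and library 3 the lowest of the 11 in 31 members, against 13.2%. In FPKM, library 2 exceeded library 3 by 1.43-fold to 3.73-fold over the 40 members, with a median of 2.44-fold. On the log2(FPKM + 1) scale, 31 members were at least 2-fold higher in library 2 than in library 3 and 0 at least 2-fold lower, where the shares of genes tested were 5.59% and 5.64%. The median difference was 1.28 for the members and -0.04 for all genes tested.

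**Figure D1:**
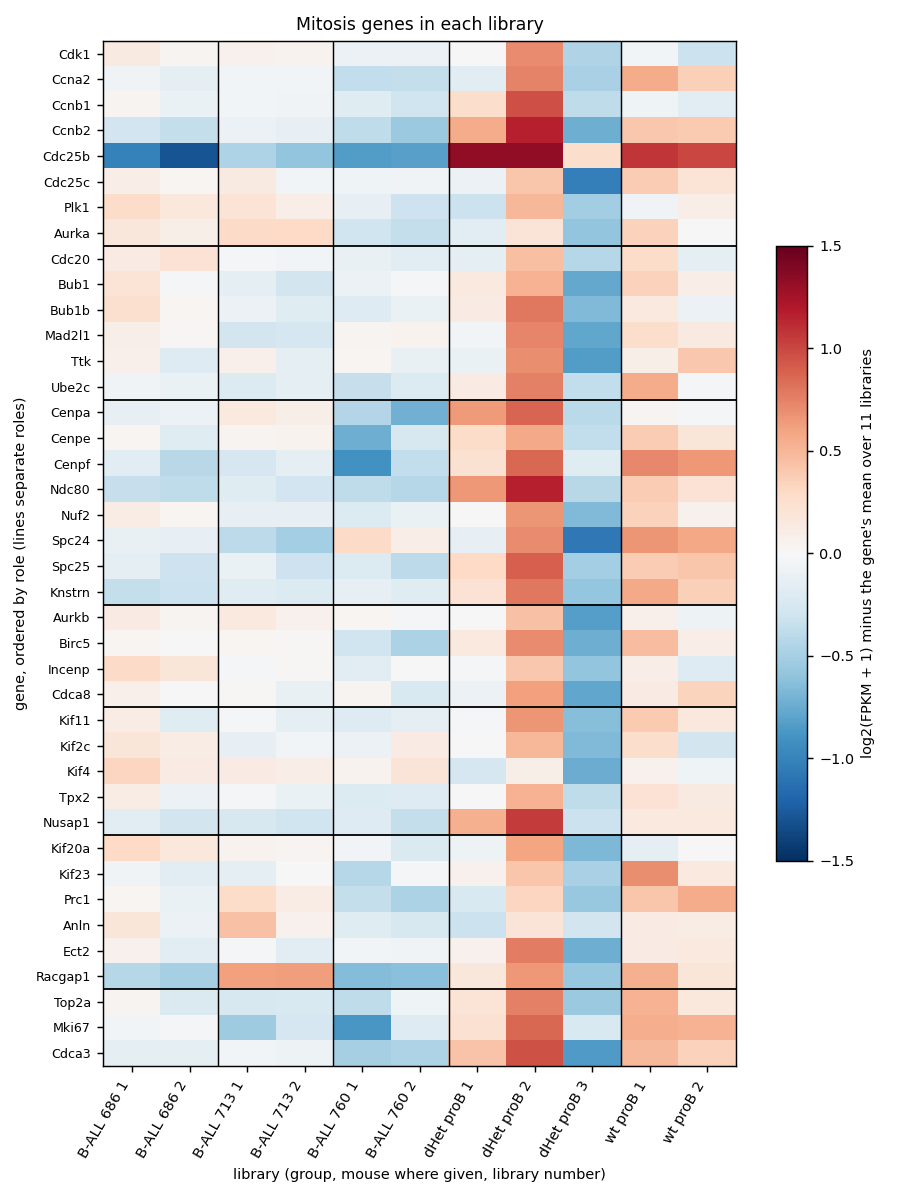
Heat map of the 40 mitosis genes (rows, ordered by role) in the 11 libraries (columns). Colour gives log2(FPKM + 1) minus the gene's mean over the 11 libraries, from blue (below) to red (above). The dHet proB library 2 is red in nearly every row and library 3 is mostly blue, while Cdc25b is the row in which B-ALL is deepest blue.

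Each of the 7 role groups showed the order. The median difference between library 2 and library 3, in log2(FPKM + 1), was 1.19 for the 8 mitotic entry kinases and cyclins, 1.37 for the 6 checkpoint and APC/C genes and 1.35 for the 8 centromere and kinetochore genes. It was 1.34 for the 4 genes of the chromosomal passenger complex, 1.17 for the 5 spindle motors and assembly factors, 1.06 for the 6 central spindle and cytokinesis genes and 1.31 for the 3 remaining genes. The members with the largest differences were Ccnb2 (1.89), Cdca3 (1.80) and Spc24 (1.78), and those with the smallest were Anln (0.47), Aurka (0.78) and Kif4 (0.83). The 2 members outside the order were Cdc25b, where libraries 1 and 2 were level, and Anln, the actin-binding anillin of the contractile ring, where library 1 was just below library 3.

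The variation was not limited to mitosis. A list of 32 G1/S and DNA replication genes, such as the MCM helicase, differed between dHet proB libraries 2 and 3 by a median of 1.76 on the same scale. The mean log2 level of the 40 members minus that of the G1/S list was -0.04, -0.23 and 0.35 in dHet proB libraries 1, 2 and 3. It was -0.02 and -0.13 in wt proB. Among the leukemias, it was -0.13 and -0.11 for mouse 713, -0.63 and -0.65 for 686, and -0.76 and -0.62 for 760. Mitosis genes thus stood below replication genes in mice 686 and 760 by more than in any proB library. Some other features of the dHet proB libraries moved with the order and some did not, and their part in it was not tested. Rag1 was at 46.4, 22.1 and 50.7 FPKM in libraries 1, 2 and 3, and Il7r at 120.4, 71.5 and 119. Other genes of the same proB marker list had the order of the members. Igll1 was at 3644, 4324 and 2941 FPKM, Vpreb1 at 2097, 2516 and 1752, and Ebf1 at 295, 369 and 283. The remaining markers of that list had no common order. Relative depth, read from the steps between low values, was 0.642, 0.660 and 0.651 of that of library 1 of mouse 686, provided the authors' scaling left those steps alone. These are rough readings, since 92 of 1380, 73 of 1317 and 86 of 1339 low genes lay at the ratio taken.

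**Figure D2:**
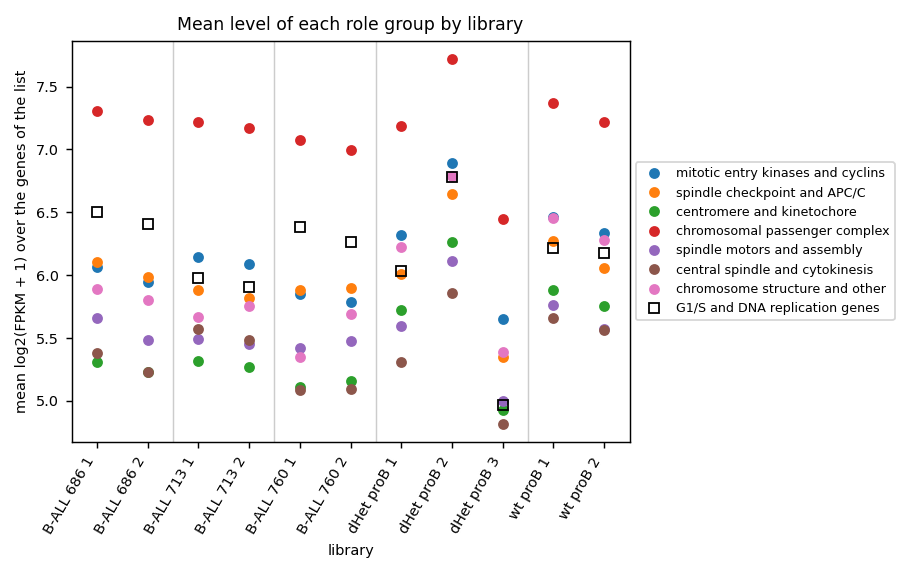
Mean log2(FPKM + 1) over the genes of each role group (coloured points) and of the G1/S list (open squares), by library. Each role group is highest in dHet proB library 2, and all but the chromosome structure group are lowest in library 3; in mice 686 and 760 the squares lie above all role groups except the chromosomal passenger complex.

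B-ALL and wt proB libraries were closer to each other within their groups. The highest of the 6 B-ALL libraries exceeded the lowest by 1.12-fold to 2.46-fold over the 40 members, with a median of 1.32-fold. The 2 wt proB libraries differed by 1.00-fold to 1.49-fold, with a median of 1.13-fold. Together the 40 members made up 0.445% to 0.546% of the summed FPKM in B-ALL, 0.707% and 0.743% in wt proB, and 0.688%, 0.958% and 0.441% in dHet proB libraries 1, 2 and 3.

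Because the members moved together between libraries, their promoters are shown. RefSeq promoter windows (build GRCm38.p6, 250 bases before to 50 bases after the start of the transcript) were matched for 33 of the 40 genes by symbol, with 35 windows; Ccna2, Cdc25c, Spc24, Aurkb, Incenp, Tpx2 and Kif20a had none. Windows were searched on both strands for 2 motifs known from such promoters, the cell cycle homology region (TTTGAA or TTCGAA, the second of which reads the same on both strands), which MuvB binds, and the NF-Y box (CCAAT). A match of one can share 1 base with a match of the other, as in 48 of all 32851 windows, among them that of Cdca8. The 5 sequences below run 5′ to 3′ on the strand of the gene over the 120 bases before the start, with matches in capitals; on the opposite strand they read TTCAAA and ATTGG. Among the members given library by library, Prc1, Cdc20, Top2a and Ube2c are those with a homology region upstream of the start and within 50 bases of it. Others, such as Cenpf and Ccnb2, have it just inside the transcript, which is not printed. Cdc25b, whose TTCGAA lies just inside the transcript and so is not in the stretch, is shown because the comparisons below turn on it, a choice made after its values were seen. In order, they are chr7:80294356-80294475 (plus strand), chr4:118437344-118437463 (minus), chr11:99024190-99024309 (minus), chr2:164769809-164769928 (plus) and chr2:131186828-131186947 (plus).
Prc1: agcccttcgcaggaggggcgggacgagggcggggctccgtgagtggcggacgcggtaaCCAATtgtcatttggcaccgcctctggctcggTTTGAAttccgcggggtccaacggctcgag
Cdc20: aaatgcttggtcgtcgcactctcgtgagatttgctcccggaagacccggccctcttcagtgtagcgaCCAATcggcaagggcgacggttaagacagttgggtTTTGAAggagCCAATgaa
Top2a: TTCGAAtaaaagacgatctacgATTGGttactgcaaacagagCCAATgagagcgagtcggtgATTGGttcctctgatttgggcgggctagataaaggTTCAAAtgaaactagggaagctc
Ube2c: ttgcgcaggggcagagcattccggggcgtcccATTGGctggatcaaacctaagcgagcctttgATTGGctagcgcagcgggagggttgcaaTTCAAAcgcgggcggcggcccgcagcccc
Cdc25b: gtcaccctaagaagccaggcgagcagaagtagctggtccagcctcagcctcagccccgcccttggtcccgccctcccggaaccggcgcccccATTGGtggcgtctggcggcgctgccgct

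The homology region was found in 26 of the 33 genes, or 80.0% of their windows, against 19.2% of all 32851 windows and 14.1% of the windows of tested genes. A match starting within 50 bases of the start was in 24 of the 33, or 74.3% of windows, against 5.31% of all. The NF-Y box was in 25 of the 33, or 77.1% of windows, against 37.4%, and at least 2 boxes were in 17 of them. Both motifs were in 23 of the 33, or 71.4% of windows, against 7.52%. The E2F core TTCCCGC, which shares no full match with the other motifs, was in 0 of the 33 and in 4.60% of all windows. The 26 genes with the homology region differed between dHet proB libraries 2 and 3 by a median of 1.19 (0.47 to 1.89), and the 7 without it (Ccnb1, Mad2l1, Cenpe, Nuf2, Knstrn, Birc5 and Nusap1) by 1.37 (0.94 to 1.51). A match is a description of the letters, and its absence says only that they are not in this window.

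**Figure D3:**
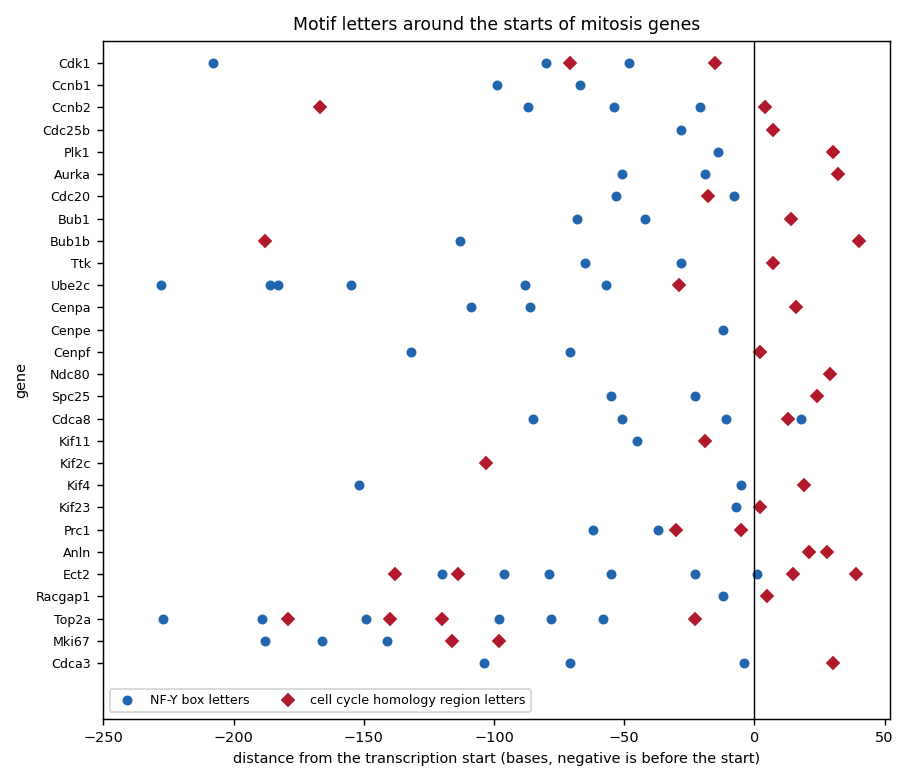
Positions of the matches in the promoter windows of the members with at least 1 match (rows), in bases from the start of the transcript (0, vertical line); where a gene has 2 windows both are drawn. Red diamonds mark the cell cycle homology region, most of them within 50 bases of the start, and blue circles the NF-Y box, most of them before the start.

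The comparisons between groups asked how leukemic cells, dHet proB cells and normal proB cells differ. Means carry the SD over the mice of B-ALL (n = 3) and over the libraries of dHet proB (n = 3) and wt proB (n = 2). Differences are log2 fold changes of FPKM + 1 with the standard error (SE) and the adjusted p of limma, called at 0.05. In B-ALL against wt proB, 0 members were higher and 2 lower, Cdc25b and Cenpf, while 8.15% of the genes tested were called higher and 10% lower. All 3 groups shared 1 spread per gene in this fit, so the wide spread of the members within dHet proB entered it. With the compared groups alone, 8 members were lower, and the share of genes called in that fit is not given here. The low count thus does not show that the members differ less than other genes. At an unadjusted p under 0.05, limma had 0 members higher and 3 lower. The median log2 difference was -0.29 for the members and -0.02 for all genes tested, and 32 of 40 members had a value below 0, against 51.4% of genes. Every B-ALL library lay below every wt proB library in 24 of the 40 members, against 24.7% of genes tested, and above in 0, against 23.5%. The 95% interval of a member's difference was 1.55 wide at the median, so members that were not called may still differ. Markers of other cells moved with this comparison, with 8 of 9 neutrophil genes and 7 of 9 plasmacytoid dendritic cell genes tested called lower in B-ALL, and their part in it was not tested. Rescaling each library to the same sum of FPKM (TPM) moved the median of all genes by -0.20 and that of the members to -0.49, and relative to the mean of the 40 members itself their median was 0.08.

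In B-ALL against dHet proB, 0 members were higher and 1 lower, Cdc25b, while 14.5% of the genes tested were called higher and 11% lower. At an unadjusted p under 0.05, limma had 0 higher and 2 lower. Markers of other cells moved with this comparison too: of those tested, 4 of 6 macrophage, 5 of 8 T cell, 2 of 4 erythroid and 2 of 5 NK cell genes were called higher in B-ALL, and 0 of 9 neutrophil genes. The summed macrophage genes were at 33.1 to 239.6 FPKM in B-ALL and 13.0 to 40.2 in dHet proB, and the summed T cell genes at 37.9 to 208 and 13.5 to 23.3. The highest T cell sums were those of mouse 760, where Lat alone was at 200.3 and 185 FPKM. Cd3e, Cd3d and Cd3g were lowest in that mouse among the leukemias. The part of such markers in the result was not tested. The median difference of the members was -0.11. Without dHet proB library 3 the median was -0.42 and 10 members were lower. Without library 2 it was 0.23, with 1 member higher (Kif4) and 1 lower (Cdc25b). The shares of genes called in these refits are not given here, so these counts have no background beside them. In dHet proB against wt proB, 0 members were called in either direction by limma, while 2.18% of the genes tested were called higher and 6.5% lower. At an unadjusted p under 0.05, 0 were higher and 1 was lower, Prc1. The median difference was -0.21, or 0.13 without dHet proB library 3 and -0.50 without library 2, when Ccna2 was called lower. Every dHet proB library lay below every wt proB library in 1 member, Prc1, against 24.1% of genes. B-ALL and dHet proB libraries were apart in 1 member, Cdc25b, against 15.5% of genes with B-ALL below and 19.5% with B-ALL above. In both comparisons that involve dHet proB, the sign of the members' median thus changed with the dHet proB libraries that entered.

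**Figure D4:**
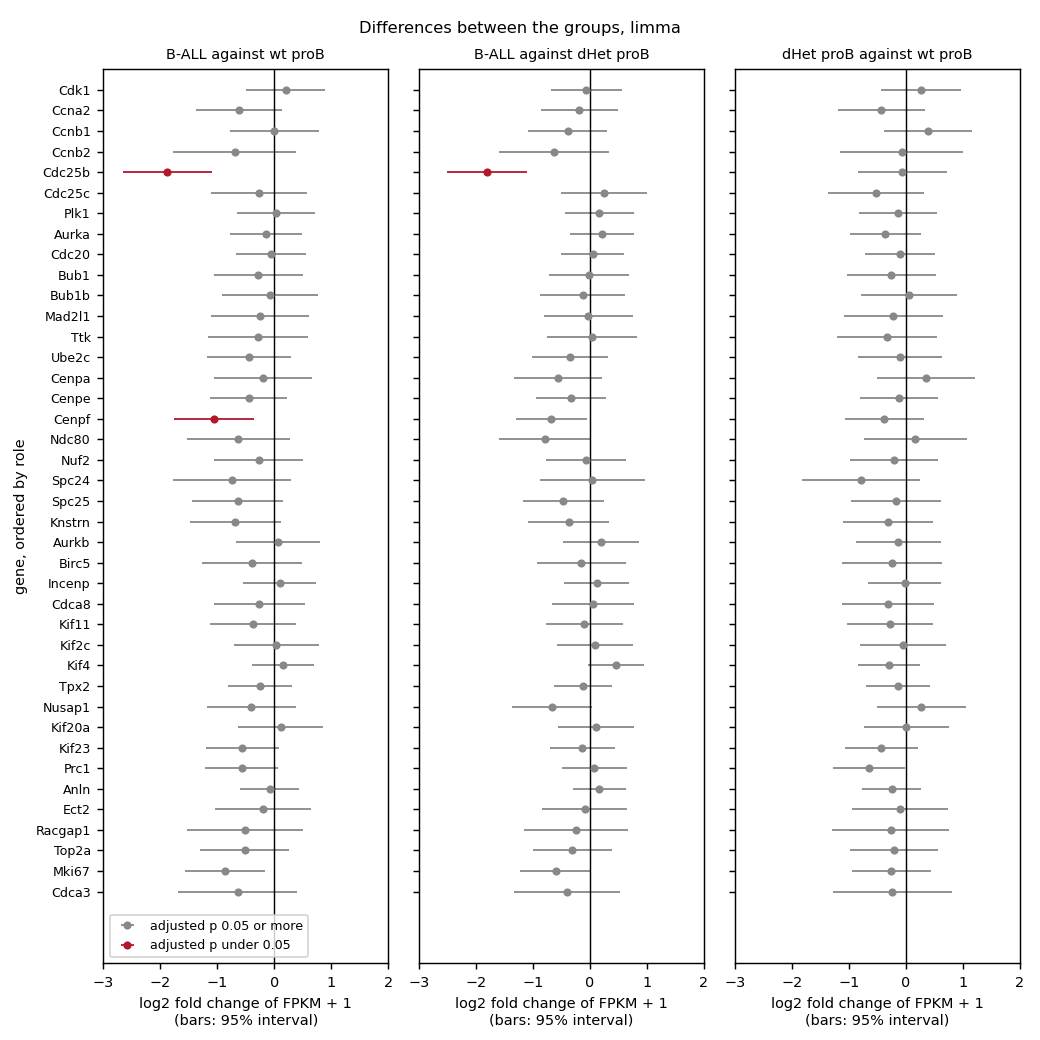
Log2 fold changes of FPKM + 1 for the 40 mitosis genes (rows, by role) in the 3 comparisons, from limma; points are estimates and bars 95% intervals. Red marks adjusted p under 0.05, which is Cdc25b and Cenpf against wt proB and Cdc25b against dHet proB, and nearly all other intervals cross 0.

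Among the mitotic entry genes, Cdc25b, a phosphatase that activates CDK1 with cyclin, had the clearest difference. The FPKM of Cdc25b by mouse was 15.2 and 12.4 in 686, 22.7 and 20.7 in 713, and 17.4 and 17.6 in 760; dHet proB had 81.6, 81.5 and 38.3, and wt proB 68.1 and 64.8. All 6 B-ALL libraries lay below all 5 proB libraries, and the lowest proB library was dHet proB library 3. The means were 17.7 ± 3.97 FPKM in B-ALL, 67.1 ± 24.9 in dHet proB and 66.5 ± 2.31 in wt proB. On the log2 scale the difference of B-ALL was -1.88 (SE 0.34, adjusted p = 0.00910) against wt proB and -1.81 (SE 0.30, adjusted p = 0.00634) against dHet proB. Against dHet proB it passed the test in all 29 alternatives run, and against wt proB in 27 of 29, losing the call without wt proB library 1 (adjusted p = 0.0817) or library 2 (0.0976). In dHet proB the neutrophil genes summed to at most 3.31 FPKM. The plasmacytoid dendritic cell list summed to 864 to 939 FPKM in dHet proB, of which Ly6d alone gave 768 to 837. In B-ALL the list summed to 255 to 2480, of which Ly6d gave 168 to 2196. Siglech, Klk1 and Clec10a were listed at 0 in dHet proB, and Siglech was at 0.015 to 1.65 in B-ALL. Bst2 and Irf8 of that list were at 31.5 to 38.1 and 38.9 to 57.8 in dHet proB. Macrophage and T cell genes, as counted above, were called higher in B-ALL than in dHet proB. The part of other cells in either difference was not tested. Cdc25b was also lowest in B-ALL relative to the other members: its log2 value minus the mean of the 40 was -2.02 to -1.28 in B-ALL and -0.19 to 0.38 in the proB libraries.

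Cdc25c encodes a related phosphatase and had a log2 difference of -0.27 (SE 0.37, adjusted p = 0.636) against wt proB and 0.25 (SE 0.33, adjusted p = 0.610) against dHet proB. The B-type cyclins were the most abundant of the group. For Ccnb2 the leukemic libraries read 194 and 186 FPKM (686), 224 and 218 (713) and 182 and 162 (760), the dHet proB libraries 349, 534 and 143, and the wt proB libraries 316 and 311. Every B-ALL library was below both wt proB libraries, and dHet proB library 3 was below all of them. Levels of Ccnb1 were 162 and 148 FPKM for mouse 686, 154 and 152 for 713, 139 and 128 for 760, 190.2, 309 and 121 for dHet proB, and 151 and 142 for wt proB. Ccnb1 overlapped between B-ALL and wt proB, and dHet proB library 2 stood above the rest. The log2 difference between B-ALL and wt proB was -0.70 (SE 0.47, adjusted p = 0.326) for Ccnb2 and 0.00 (SE 0.34, adjusted p = 1) for Ccnb1. Aurka, the kinase of centrosomes and spindle poles, was among the members that varied most between the mice. Aurka had FPKM of 71.9 and 67.8 (mouse 686), 77.9 and 78.3 (mouse 713) and 51.6 and 49.5 (mouse 760) in B-ALL, of 57.2, 72.9 and 42.0 in dHet proB, and of 81.3 and 64.0 in wt proB. Mouse 760 was the lowest of the 3, and the B-ALL libraries spanned most of the proB range.

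In the spindle checkpoint and APC/C group, 0 of 6 members passed the test of limma in any of the 3 comparisons, and 0 had an unadjusted p under 0.05. Cdc20 activates the APC/C and Ube2c is the E2 enzyme that starts its ubiquitin chains. The FPKM of Cdc20 by mouse was 153 and 164 in 686, 139 and 136 in 713, and 130.4 and 126 in 760; dHet proB had 127, 192 and 104, and wt proB 171 and 127. For Ube2c the leukemic libraries read 230.2 and 223 FPKM (686), 208 and 215 (713) and 189 and 208 (760), the dHet proB libraries 261, 406 and 185, and the wt proB libraries 353 and 237. Cdc20 overlapped between all groups, while all 6 B-ALL libraries were below both wt proB libraries for Ube2c. The log2 difference of Cdc20 between B-ALL and wt proB was -0.06 with a 95% interval of -0.68 to 0.55, and that of Ube2c was -0.45 with -1.19 to 0.29. Ttk, the kinase that starts the checkpoint signal, had the smallest F statistic between the mice. Levels of Ttk were 21.5 and 17.6 FPKM for mouse 686, 21.4 and 18.4 for 713, 20.6 and 18.8 for 760, 18.9, 33.5 and 10.9 for dHet proB, and 21.7 and 27.2 for wt proB. The mice differed less than the 2 libraries of a mouse did, and dHet proB libraries 2 and 3 held the extremes. The other members, Bub1, Bub1b and Mad2l1, encode checkpoint proteins at the kinetochore and the direct inhibitor of CDC20; their log2 differences between B-ALL and wt proB lay between -0.28 and -0.08.

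The centromere and kinetochore genes had the lowest median of the larger role groups in B-ALL against wt proB. It was -0.64, all 8 members had values below 0 and 1 passed the test, Cenpf, a large kinetochore and nuclear matrix protein of G2 and M. Cenpf had FPKM of 7.86 and 6.43 (mouse 686), 7.33 and 7.98 (mouse 713) and 4.30 and 6.70 (mouse 760) in B-ALL, of 10.7, 17.0 and 7.74 in dHet proB, and of 15.3 and 14.6 in wt proB. All B-ALL libraries were below both wt proB libraries and below 2 of the 3 dHet proB libraries, and 2 B-ALL libraries were above dHet proB library 3. The log2 difference between B-ALL and wt proB was -1.06 (SE 0.30, adjusted p = 0.0459). It passed in 14 of 29 alternatives, its adjusted p reaching 0.209 without wt proB library 1, 0.214 without library 2, 0.1002 without mouse 686 and 0.106 without mouse 760. Against dHet proB the difference was -0.68 (SE 0.27, adjusted p = 0.0997), and it passed when library 3 was left out (adjusted p = 0.0351). Cenpa, the histone variant that marks the centromere, and Spc25, a subunit of the NDC80 complex, were the most abundant of the group. The FPKM of Cenpa by mouse was 248 and 256 in 686, 300.3 and 289 in 713, and 200.5 and 165 in 760; dHet proB had 424, 498 and 204, and wt proB 279.9 and 268. For Spc25 the leukemic libraries read 87.5 and 78.0 FPKM (686), 90.0 and 77.6 (713) and 83.5 and 73.7 (760), the dHet proB libraries 119.5, 181 and 67.4, and the wt proB libraries 126 and 130.0. Cenpa overlapped between B-ALL and wt proB, whereas Spc25 did not, with every B-ALL library lower. Of the 8 members, 6 (Cenpe, Cenpf, Ndc80, Spc24, Spc25 and Knstrn) had every B-ALL library below every wt proB library.

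The chromosomal passenger complex corrects faulty attachments and later guides cytokinesis, with Aurkb as its kinase and Birc5, Incenp and Cdca8 as its other subunits. None of its 4 genes passed the test by limma in any comparison, and at an unadjusted p under 0.05 the count was also 0. Levels of Birc5 were 256 and 254 FPKM for mouse 686, 258 and 256 for 713, 205 and 181 for 760, 278, 411 and 151 for dHet proB, and 347 and 270.4 for wt proB. Cdca8 had FPKM of 206 and 194 (mouse 686), 197 and 179.8 (mouse 713) and 200.3 and 165 (mouse 760) in B-ALL, of 183, 299 and 113 in dHet proB, and of 211 and 246 in wt proB. For both genes dHet proB library 2 was highest and library 3 lowest, and B-ALL lay below wt proB without overlap. Aurkb and Incenp differed from B-ALL to wt proB by 0.06 (SE 0.32, adjusted p = 0.906) and 0.09 (SE 0.28, adjusted p = 0.834).

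Among spindle motors and assembly factors, 0 of 5 passed the test of limma, and 0 had an unadjusted p under 0.05. Nusap1 and Tpx2 bind and nucleate spindle microtubules. The FPKM of Nusap1 by mouse was 92.3 and 85.4 in 686, 88.0 and 84.6 in 713, and 91.0 and 80.7 in 760; dHet proB had 151, 216 and 82.7, and wt proB 115 and 115. For Tpx2 the leukemic libraries read 61.1 and 53.2 FPKM (686), 55.8 and 52.8 (713) and 48.6 and 49.1 (760), the dHet proB libraries 56.1, 81.3 and 43.2, and the wt proB libraries 65.5 and 62.2. The B-ALL libraries were below both wt proB libraries for both genes, by little for Tpx2, and the 3 mice had nearly the same level of Nusap1. Kif4, a chromosome-bound kinesin, was the member with the highest log2 difference from dHet proB. Levels of Kif4 were 21.5 and 18.5 FPKM for mouse 686, 18.5 and 18.3 for 713, 17.6 and 19.6 for 760, 14.0, 18.1 and 9.76 for dHet proB, and 17.7 and 16.1 for wt proB. The B-ALL libraries overlapped dHet proB library 2 and were above libraries 1 and 3. The difference was 0.46 (SE 0.21, adjusted p = 0.149), and it passed the test when dHet proB library 2 was left out (adjusted p = 0.0453).

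Racgap1 was the 1 member that passed the test between the 3 B-ALL mice. It encodes the GTPase-activating subunit of centralspindlin, which bundles the central spindle and calls up the cytokinetic furrow. Racgap1 had FPKM of 59.0 and 56.2 (mouse 686), 122 and 123 (mouse 713) and 50.2 and 51.0 (mouse 760) in B-ALL, of 89.2, 126 and 53.5 in dHet proB, and of 115 and 90.1 in wt proB. Both libraries of mouse 713 were above all 4 libraries of the other mice, and just under the highest proB library. The limma F test between the mice gave F = 9.24 and an adjusted p of 0.0338; 1 of 40 members passed it, against 22.3% of 11293 genes tested. Without wt proB library 1 or 2 the adjusted p was 0.0525 and 0.0526, and over the 6 B-ALL libraries alone 13 of 40 members passed, against 47.7% of genes. The libraries with the same number deviated together over the 3 mice, and with the replicate number as a block 3 members passed (Racgap1, Cdc25b and Cenpa), against 27.6% of genes, with an adjusted p of 0.00396 for Racgap1. With the block over the 6 B-ALL libraries alone, a fit added after the data were seen, 15 members passed, against 51.3%. In each of these fits the share of members that passed was below that of all genes. Its partner Kif23, the motor of centralspindlin, and Ect2, the exchange factor that RACGAP1 recruits, had F statistics of 0.138 and 0.00641 in the same test, with adjusted p of 0.930 and 1. The FPKM of Ect2 by mouse was 33.7 and 28.7 in 686, 31.8 and 28.9 in 713, and 31.3 and 31.0 in 760; dHet proB had 33.7, 55.7 and 19.0, and wt proB 35.2 and 35.9. Ect2 was nearly level over the 6 B-ALL libraries. Erythroid genes were also highest in mouse 713, as was Serpinf1 of the stromal marker list, with 200.2 and 199.7 FPKM against 59.8 to 62.7 in the other B-ALL libraries. The other stromal markers were near 0 in mouse 713. The plasmacytoid dendritic cell list summed to 2480 and 2414 FPKM in this mouse, against 255 to 648 in the other B-ALL libraries. Ly6d alone gave 2196 and 2123 FPKM of it, against 168 to 525. Irf8 of that list was at 221 and 229 FPKM, against 14.4 to 23.2. Bst2 was lower in mouse 713, at 56.1 and 55.8 against 68.6 to 100.7. The rest of the list, with Siglech at 1.59 and 1.65 and Klk1 at 0, was at 5.13 FPKM or less there. The NK cell genes summed to 32.5 and 33.7 FPKM, against 5.56 to 12.1. The part of such markers in the Racgap1 difference was not tested.

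Prc1 bundles antiparallel microtubules at the central spindle. For Prc1 the leukemic libraries read 79.8 and 73.2 FPKM (686), 94.8 and 84.7 (713) and 60.7 and 56.2 (760), the dHet proB libraries 66.8, 97.9 and 52.6, and the wt proB libraries 105 and 116. The 2 wt proB libraries were above the other 9, and mouse 760 was the lowest of the B-ALL mice. The differences were -0.58 (SE 0.28, adjusted p = 0.181) from wt proB to B-ALL and -0.65 (SE 0.28, adjusted p = 0.216) from wt proB to dHet proB. Top2a, the topoisomerase that untangles sister chromatids, and Cdca3, a trigger of mitotic entry, were the most abundant of the remaining genes. Levels of Top2a were 119 and 99.9 FPKM for mouse 686, 98.2 and 99.3 for 713, 88.9 and 111 for 760, 134, 196 and 78.6 for dHet proB, and 167 and 129.7 for wt proB. Cdca3 had FPKM of 69.3 and 68.8 (mouse 686), 74.4 and 72.3 (mouse 713) and 53.8 and 55.0 (mouse 760) in B-ALL, of 103, 149 and 42.1 in dHet proB, and of 107 and 96.9 in wt proB. Both were lower in every B-ALL library than in either wt proB library, and both were lowest in dHet proB library 3. Mki67, the gene of the Ki-67 antigen used to score proliferation, had a log2 difference of -0.86 (SE 0.30, adjusted p = 0.0855) between B-ALL and wt proB, and its 3 dHet proB libraries stood at 28.7, 44.9 and 20.6 FPKM.

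**Figure D5:**
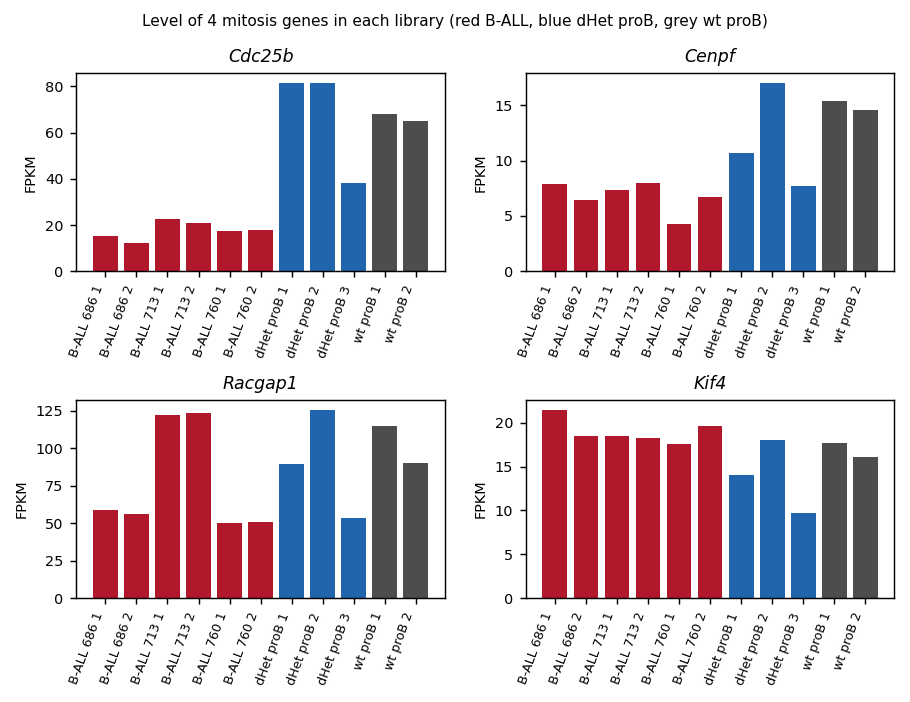
FPKM of Cdc25b, Cenpf, Racgap1 and Kif4 in each of the 11 libraries (bars; red B-ALL, blue dHet proB, grey wt proB). Cdc25b separates B-ALL from the proB libraries, and Racgap1 is high in both libraries of mouse 713.

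Members were also read relative to each other. After subtraction of the mean of the 40 members in each library, every B-ALL library lay below every proB library in 5 members (Cdc25b, Cenpf, Ndc80, Spc25 and Mki67), against 2.03% of genes tested. It lay above in 4 (Aurkb, Incenp, Kif4 and Kif20a), against 10.7%. Subtracting the members' own mean puts some of them on each side. The same mean was subtracted from all genes. It ranged from 5.62 to 5.88 over the B-ALL libraries and from 5.31 to 6.55 over those of dHet proB. The subtraction removes this spread from the members but adds it, with the sign reversed, to genes that do not share it. The shares of genes tested are therefore no like-for-like background on this scale, and these counts have no test. For Kif4 this relative log2 level was -1.56 to -1.29 in B-ALL and -2.30 to -1.89 in the proB libraries, and for Ndc80 -0.48 to -0.26 and -0.09 to 0.40. Every dHet proB library lay above every wt proB library in 6 members, against 9.9% of genes, and below in 6, against 10.8%. This scale was chosen after the data were seen.

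The 2 libraries of a mouse agreed in most members. They differed by at least 1.2-fold on the FPKM + 1 scale in 4 members in mouse 686, against 17.7% of genes tested, in 2 in mouse 713, against 13.5%, and in 7 in mouse 760, against 21.1%. Library 2 was at least 2-fold above library 1 on that scale in 0 members in each mouse, against 3.74%, 1.62% and 0.27% of genes in mice 686, 713 and 760. Some of the regulators did show such a difference. In mouse 686 it was found in 5 of 21 regulators of mitotic transcription (Mybl2, Lin54, E2f1, E2f4 and E2f5), in Wee1 and in Ube2s, and in mouse 713 in E2f1 and Ube2s; these genes were picked out after their values were seen. Mybl2, which encodes the B-MYB partner of MuvB, was at 11.4 and 38.7 FPKM in the libraries of mouse 686, and Wee1, the kinase that restrains CDK1, at 12.1 and 37.3. In the same 2 libraries the summed FPKM of the 40 members was 3304 and 3121. Foxm1 was at 5.49 and 6.18 there. E2f1, an activator of S phase genes, was at 4.00 and 18.7 FPKM in mouse 686, 4.01 and 12.3 in 713, and 8.10 and 13.9 in 760, and so was lower in library 1 of every mouse.

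Other genes of the pathway are given from lists drawn up by role. Over all genes tested, 8.15% were called higher and 10% lower in B-ALL against wt proB. The shares were 14.5% and 11% in B-ALL against dHet proB, and 2.18% and 6.5% in dHet proB against wt proB. The counts of every list below are small and stand beside these shares, and they are not read as results about the lists. Of 21 regulators of mitotic transcription, 0 were called higher and 3 lower in B-ALL against wt proB: the E2F activator E2f2, Tfdp2, a dimer partner of E2F factors, and Nfyb, a subunit of NF-Y. The FPKM of E2f2 by mouse was 12.1 and 20.1 in 686, 35.2 and 36.8 in 713, and 14.1 and 16.6 in 760; dHet proB had 55.3, 95.4 and 20.1, and wt proB 132 and 138. All B-ALL libraries were below both wt proB libraries; dHet proB libraries 1 and 2 lay between, and library 3 among the B-ALL values. For Tfdp2 the leukemic libraries read 5.68 and 4.79 FPKM (686), 8.08 and 7.23 (713) and 6.04 and 5.22 (760), the dHet proB libraries 38.4, 33.4 and 23.6, and the wt proB libraries 15.9 and 18.8. Tfdp2 was lower in B-ALL than in all 5 proB libraries. The log2 differences from wt proB were -2.66 (adjusted p = 0.0220), -1.37 (adjusted p = 0.00903) and -1.10 (adjusted p = 0.0159) for E2f2, Tfdp2 and Nfyb, the last named after its values were seen. Against dHet proB, Tfdp2 was the 1 regulator called, -2.18 (adjusted p = 0.00111). Foxm1, the forkhead activator of G2/M genes, had a log2 difference of -0.86 (adjusted p = 0.110) against wt proB, -0.60 (adjusted p = 0.171) against dHet proB and -0.26 (adjusted p = 0.724) from wt proB to dHet proB. Levels of Foxm1 were 5.49 and 6.18 FPKM for mouse 686, 8.34 and 8.86 for 713, 4.46 and 5.87 for 760, 9.56, 15.8 and 6.88 for dHet proB, and 13.2 and 11.6 for wt proB. Foxm1 had the same order of the dHet proB libraries as the members. Mybl2 differed by -0.11 (adjusted p = 0.845), 0.04 (adjusted p = 0.933) and -0.15 (adjusted p = 0.848) in the 3 comparisons, and its sign changed with the setting.

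Of 36 other kinetochore and checkpoint genes, 1 was higher and 1 lower in B-ALL than in wt proB, against 8.15% and 10% of genes tested. Zwint, a kinetochore protein that recruits the checkpoint's ZW10 complex, differed by 0.93 (adjusted p = 0.0188). Hjurp, the chaperone that deposits CENP-A, differed by -0.98 (adjusted p = 0.0225), and by -1.03 (adjusted p = 0.0286) from wt proB to dHet proB, where it was the 1 gene of the pathway lists called. Hjurp had FPKM of 6.78 and 5.61 (mouse 686), 4.61 and 4.89 (mouse 713) and 6.54 and 7.57 (mouse 760) in B-ALL, of 6.11, 6.79 and 4.46 in dHet proB, and of 12.7 and 12.7 in wt proB. Both wt proB libraries were above the other 9. Of 21 cohesin, separase and condensin genes, Nipbl, the loader of cohesin, was lower in B-ALL, with log2 differences of -1.37 (adjusted p = 0.0117) against wt proB and -1.30 (adjusted p = 0.00834) against dHet proB. The FPKM of Nipbl by mouse was 10.9 and 9.96 in 686, 18.9 and 19.9 in 713, and 8.79 and 11.6 in 760; dHet proB had 34.7, 30.4 and 33.4, and wt proB 33.4 and 35.8. Nipbl was low in B-ALL, highest there in mouse 713, and nearly level over the 5 proB libraries. Pttg1, the securin that holds separase back, was higher in B-ALL than in dHet proB by 1.48 (adjusted p = 0.0347). For Pttg1 the leukemic libraries read 85.6 and 78.2 FPKM (686), 144 and 139.8 (713) and 78.2 and 58.9 (760), the dHet proB libraries 29.6, 59.0 and 19.5, and the wt proB libraries 78.8 and 104. The B-ALL and wt proB libraries overlapped, and dHet proB libraries 1 and 3 were the lowest.

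Of 17 APC/C subunits and partners, 1 was lower in B-ALL than in dHet proB, against 11% of genes tested. It was Ube2s, the E2 enzyme that lengthens the chains begun by UBE2C (-1.51 (adjusted p = 0.00821)). Levels of Ube2s were 21.7 and 109 FPKM for mouse 686, 31.1 and 125 for 713, 49.7 and 77.5 for 760, 124, 254 and 145 for dHet proB, and 68.4 and 93.1 for wt proB. Ube2s also differed several-fold between the 2 libraries of mice 686 and 713, unlike Ube2c. Of 16 genes of mitotic entry and exit control, 1 was lower against dHet proB, again against 11% of genes. It was Cdc25a, the CDC25 phosphatase of the G1/S step (-0.63 (adjusted p = 0.0281)). Cdc25a had FPKM of 8.05 and 11.5 (mouse 686), 7.87 and 12.8 (mouse 713) and 8.17 and 10.9 (mouse 760) in B-ALL, of 12.8, 16.1 and 18.3 in dHet proB, and of 9.12 and 9.84 in wt proB. Its dHet proB libraries ran in another order than the members, with library 3 highest. Of 25 other spindle and cytokinesis genes and of 32 G1/S genes, 0 were called by limma in any of the 3 comparisons. At an unadjusted p under 0.05 the spindle list had 1 higher and 2 lower in B-ALL against wt proB and 1 lower against dHet proB, and the G1/S list 1 higher against dHet proB. The median differences of the G1/S list were 0.13 against wt proB and 0.24 against dHet proB for B-ALL, and -0.29 for dHet proB against wt proB, with a median 95% interval 2.05 wide in the comparisons with wt proB.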

How the data were processed

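The authors deposited 1 table of FPKM per library, with the same gene symbols in each. The tools named, per the submitters' processing notes, are bcl2fastq (0.3.1 and 2.20.0.422), the aligner STAR (2.5.3a), and Cufflinks (2.2.1), Cuffnorm (2.2.1) and Cuffdiff, with mouse build mm9. Annotation, strand setting and Cuffnorm's scaling: not given in the sources used here. Total RNA was taken with the RNeasy kit and libraries were made with the NEB E6420 kit, per the labels' protocols.

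The values were taken to log2(FPKM + 1), which shrinks differences of low genes. The 2 libraries of a B-ALL mouse were averaged on that scale, which left 8 units. A gene entered if its FPKM reached 1 in 2 or more units. The test was limma 3.58.1 (R 4.3.3, statmod 1.5.0), with all 3 groups in 1 fit, a mean-variance trend, two-sided tests and Benjamini-Hochberg adjustment over 11110 genes per comparison. For the mice, limma's F test was run on the 11 libraries in 5 groups, which sets the mice against the spread between libraries. The replicate numbers tie the libraries of the B-ALL mice, a pairing read from the data alone. In their deviations from the mouse means, same-numbered libraries correlated at 0.64 between mice 686 and 713. The correlation was 0.21 between 713 and 760 and 0.13 between 686 and 760. With 2 libraries a mouse the deviations mirror each other, so both numbers give the same values and count once. Because of this pairing the mice were also compared with the number as a block. The fit was tested on simulated data. Promoter windows came from RefSeq. Named members are the 2 most abundant of each role group, those called, and the 3 with the largest and the 3 with the smallest F; from pathway lists, up to 2 called genes per list and direction, and Foxm1 and Mybl2. Kif4, Mki67, Cdc25c and a few others are given besides. The members and lists were chosen with earlier results of these data known.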

Additional observations from a re-analysis of the deposited data

How the results depend on the processing

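In each comparison 29 alternatives were run. Counts of members called in them are for the most part given without the share of genes called in the same fit. Cdc25b stayed lower in B-ALL in all of them, and the call against wt proB ended without either wt proB library. The members lower in B-ALL against wt proB numbered 1 without a filter on low values, with quantile normalization, with the mouse as a random effect, with library 1 or library 2 alone of each mouse and relative to the mean of the members, and 8 with the compared groups alone; leaving out 1 library or mouse at a time gave 0 to 4. Against dHet proB they numbered 4 after rescaling to TPM, and 0 to 1 members were higher and 1 to 10 lower when libraries were left out; for dHet proB against wt proB, 0 to 1 were lower. Genes called higher and lower in B-ALL against wt proB were 905 and 1112, 529 and 1695 after rescaling to TPM, 583 and 307 relative to the members' mean, and 739 lower with a filter at FPKM 5; leaving out gave 61 to 1113 higher and 134 to 1359 lower. Against dHet proB they were 1614 and 1218, 854 and 229 relative to the members' mean, and 810 to 1664 and 582 to 1301 when left out. For dHet proB against wt proB they were 242 and 722, 456 higher with quantile normalization, 161 higher with upper quartile scaling, 81 and 294 relative to the members' mean, 1181 lower without a filter and 390 lower at FPKM 5, and 13 to 328 and 63 to 923 when left out. Calls that were higher made up 44.9% in B-ALL against wt proB, 23.8% after TPM and 28.3% after upper quartile scaling; 57.0% against dHet proB, 38.8% after TPM and 46.5% after quantile normalization; and 25.1% in dHet proB against wt proB, 41.8% after quantile normalization and 14.0% after upper quartile scaling. The F test between mice passed 13 members and 5073 genes over the 6 B-ALL libraries alone (15 and 5460 with the replicate block added), and 0 to 4 members when proB libraries were left out. Signs turned for Mybl2 against wt proB (0.26 relative to the members' mean, 0.26 with library 2 alone; -0.39 to 0.17 with units left out), for Mybl2 against dHet proB (-0.13 after TPM, -0.010 after quantile normalization, -0.32 with library 1 alone, -0.25 to 0.33 with units left out), and for dHet proB against wt proB in Mybl2 (0.024 relative to the members' mean, -0.44 to 0.15 with units left out) and Cdc25b (0.11 and -0.24 to 0.29); the cause was not tested. The depth of the libraries is unknown, so it sets no stated limit, and 2 or 3 units a group limit the precision.

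The replicate numbers were not taken to pair B-ALL with proB libraries, where 3 of 14 same-numbered pairs correlated over 0.1 in their deviations. Pairs of a B-ALL mouse with wt proB hold the same value for both numbers, 0.11 for mouse 686. With the replicate block, in which dHet proB library 3 has no partner and drops out, 5 members were lower in B-ALL against wt proB and 9 against dHet proB. The shares of genes called there are not given. Between the mice 3 members passed with the block, against 27.6% of genes tested. Mybl2 was then at -0.25 against dHet proB and 0.15 in dHet proB against wt proB, and Cdc25b at 0.29 in the latter.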
